A study of Arabidopsis thaliana with 32 samples.

Results

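The genes described here are 250 of the 33607 loci measured in Arabidopsis thaliana. They were selected on their RPKM values, a unit that relates reads to transcript length and library size. Their transcripts were moderately higher in iron-deficient than in iron-fed roots of a control line that expresses EYFP, a yellow fluorescent protein. A locus was taken when the lower of both deficient libraries was at least 1.3 times the higher of both control libraries, the ratio of group means lay between 1.5 and 4, and the mean in deficient roots was at least 5 RPKM. The rule kept 0.744% of all loci, and 69 further loci passed the same gap and level with a ratio above 4. Because the EYFP root values chose these genes, those values are given as a description, without a test. The results are what the same genes did in roots of 3 other lines and in rosettes of all 4 lines.

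Plants deprived of iron raise a set of root genes that reduce ferric iron, acidify the soil, secrete coumarins and import ferrous iron, under the control of bHLH transcription factors such as FIT. Hemerythrin E3 ligases such as BTS and BTSL2 act against this response, and IRON MAN (IMA) peptides promote it. Around this core, roots draw on primary metabolism: the methionine and S-adenosylmethionine (SAM) cycle supplies nicotianamine, a metal chelator made from SAM, and the phenylpropanoid pathway supplies the precursors of coumarins.

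The study sequenced polyadenylated RNA of roots and of rosettes from seedlings of 4 lines on control medium and on medium without iron. The lines were EYFP OE (EYFP driven by the constitutive 35S promoter), IMA1 OE and IMA3 OE (the IMA1 or IMA3 reading frame behind the same promoter) and opt3-2 (a T-DNA insertion line of OPT3, a transporter known for loading iron into the phloem). Seedlings grew for 10 days on full ES medium, were moved to the same medium or to medium without iron that held the ferrous iron chelator ferrozine, and were harvested 72 hours later; the labels give the ferrozine as 100 µM in one place and 300 µM in another. Each of 16 groups had n = 2 libraries, 32 in all, and the labels do not say whether the 2 came from separate cultures, so the p-values cover no more than the spread of such a pair, which may be technical. The EYFP OE plants are a transgenic control and not the wild type, and whether each line is a single insertion event is not given in the sources used here.

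The tissues matched their names. The summed level of 9 root genes was 274 to 322 RPKM in root libraries and 19.7 to 27.7 RPKM in rosette libraries, where 3 of the 9 stayed below 0.5 RPKM. The summed level of 5 photosynthesis genes was 19400 to 34700 RPKM in rosettes and 84.8 to 519 RPKM in roots, with none at 0. In opt3-2 roots it was 158 and 295 RPKM on control medium and 84.8 and 125 RPKM after iron deficiency, the latter below every other root library, and its part in the opt3-2 results was not tested. A ribosomal RNA locus stood out at 15020 and 41091 RPKM in the iron-deficient IMA3 OE roots and at 24222 RPKM in replicate 2 of iron-fed opt3-2 rosettes; results that depend on one of these libraries are given with and without it.

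Within EYFP roots the ratio of means ran from 1.50 to 3.89 with a median of 1.86. A ratio of at least 3 was found for 23 genes, a ratio of 2 to 3 for 72 and a smaller one for 155. Levels in deficient roots ran from 5.16 to 1785 RPKM with a median of 23.2 RPKM, and 37 genes exceeded 100 RPKM. Just inside the upper limit lay AT3G18560 (3.89), AT3G57157 (3.88) and HAK5 (3.88), and just outside it AT3G53260 (4.05) and AT3G06890 (4.20). At the lower limit AT4G08555 (1.50) was inside and AT1G76950 (1.50, under the limit by less than 0.001) outside. At the limit on the gap AT1G12420 (1.31) was inside and AT1G67810 (1.29) outside, and at the limit on the level HAK5 (5.16 RPKM) was inside and AT4G35480 (4.92 RPKM) outside. Of the 250 genes 244 are annotated as protein coding.

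The 500 bases upstream of each annotated gene start were searched for motifs, and stretches of 120 to 281 bases are shown for 8 genes of the patterns below, read from the RefSeq assembly TAIR10.1, 5′ to 3′ on the strand of the gene. CACGTG, the G-box that bHLH factors are known to bind, was found in 23 of 248 nuclear members (9.27%) and in 10.1% of the 20379 promoters of genes tested in roots. BTS held 3 copies, all between 64 and 140 bases from its start, and ZIF1 held 1 and DGAT3 held 2. These 3 stretches were picked after the counts were seen, from the few members that also rose in rosettes, because they held the motif. The other members that rose in EYFP or opt3-2 rosettes, AT2G14247, ORG1, PYE, NAS4, NRAMP4 and CSD1, held no CACGTG. A link of the motif to rosettes was not tested. Capitals mark CACGTG.

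BTS, chr3:6273800-6273921, plus strand: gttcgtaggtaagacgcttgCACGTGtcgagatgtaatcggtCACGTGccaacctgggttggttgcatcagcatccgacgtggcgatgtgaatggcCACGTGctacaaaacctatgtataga
ZIF1, chr5:4431969-4432090, plus strand: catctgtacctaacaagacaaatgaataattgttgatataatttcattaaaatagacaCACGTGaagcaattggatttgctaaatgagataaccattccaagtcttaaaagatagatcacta
DGAT3, chr1:17846567-17846847, plus strand: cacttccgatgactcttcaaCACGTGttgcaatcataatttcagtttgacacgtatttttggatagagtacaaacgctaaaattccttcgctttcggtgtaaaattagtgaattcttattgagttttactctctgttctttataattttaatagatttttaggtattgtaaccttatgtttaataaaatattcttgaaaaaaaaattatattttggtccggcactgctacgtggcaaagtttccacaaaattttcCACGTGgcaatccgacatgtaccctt

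The 4 genes with the strongest shared root response, 4CL2, ORG1, SAM1 and BTSL2, held no CACGTG in these 500 bases, and the 120 bases next to their starts are printed without capitals.

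4CL2, chr3:7457405-7457524, minus strand: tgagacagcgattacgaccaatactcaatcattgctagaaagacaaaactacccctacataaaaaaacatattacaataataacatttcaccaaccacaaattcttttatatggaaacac
ORG1, chr5:21688643-21688762, plus strand: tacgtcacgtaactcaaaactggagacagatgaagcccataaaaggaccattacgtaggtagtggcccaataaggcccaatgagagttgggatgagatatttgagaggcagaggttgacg
SAM1, chr1:517971-518090, plus strand: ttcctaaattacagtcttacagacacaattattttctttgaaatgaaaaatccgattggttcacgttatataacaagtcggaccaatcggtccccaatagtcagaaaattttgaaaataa
BTSL2, chr1:6538146-6538265, minus strand: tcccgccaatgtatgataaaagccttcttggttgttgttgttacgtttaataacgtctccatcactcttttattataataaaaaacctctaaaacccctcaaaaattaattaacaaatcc

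A second motif, TTGACC or TTGACT on either strand, the W-box that WRKY factors are known to bind, was found in 146 of 248 members (58.9%) and in 45.1% of the promoters of genes tested in roots. It was found in 48.1% of the 106 members that rose in IMA1 OE roots and in 66.4% of the 134 nuclear members that rose in none of the 3 other lines. PROPEP3, the precursor of an elicitor peptide, held 7 matches, the most of any member, and 6 of them lie in the stretch shown, with the matches in capitals. The matches are letters in a sequence and were not tested as binding sites.

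PROPEP3, chr5:25939274-25939533, plus strand: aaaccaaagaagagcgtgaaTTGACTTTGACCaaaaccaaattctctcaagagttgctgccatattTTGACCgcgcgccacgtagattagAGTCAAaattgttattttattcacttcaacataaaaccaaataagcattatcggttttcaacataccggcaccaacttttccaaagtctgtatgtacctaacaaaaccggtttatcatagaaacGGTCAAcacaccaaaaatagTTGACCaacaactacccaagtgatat

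Iron deficiency raised many of these genes in roots of the other 3 lines too. In IMA1 OE roots 106 of the 250 genes rose and 0 fell at an adjusted p under 0.05 (limma, adjusted over all 20586 genes tested), where 0.962% of all genes rose, 0.165% fell and 1.13% passed in either direction. In such bulk samples fewer cells of a type and less RNA per cell cannot be told apart. In IMA3 OE roots 34 rose and 0 fell, against 0.617% and 0.0631% of all genes. In opt3-2 roots 27 rose and 0 fell, against 0.452% and 0.447% of all genes. The median log2 fold change of the 250 genes was 0.55 in IMA1 OE, 0.38 in IMA3 OE and 0.29 in opt3-2, beside -0.01, -0.01 and 0.02 for all genes tested.

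The plot of all members by library shows the same without a test: most members were separated between media in IMA1 OE, IMA3 OE and opt3-2. Both deficient libraries lay above both control libraries for 206 of 250 genes in IMA1 OE (15.7% of all genes), for 208 in IMA3 OE (14.4% of all genes) and for 171 in opt3-2 (21.4% of all genes). The log2 fold change was above 0 in all 3 lines for 203 genes, and for only AAP3, an amino acid permease, and AT4G08555 it was above 0 in none. By line it was above 0 for 96%, 96.4% and 84.4% of members in IMA1 OE, IMA3 OE and opt3-2. The shares of all genes tested were 48.1%, 46.5% and 55.8%, and the share above 0 in all 3 lines was not counted. Medians elsewhere were larger for genes with a larger ratio in EYFP roots. In IMA1 OE the median was 0.46 for ratios of 1.5 to 2, 0.78 for 2 to 3 and 1.1 for 3 to 4. The medians in opt3-2 were 0.23, 0.40 and 0.53. These ratios chose the genes, so this is a description without a test. Across the 250 genes, which are not independent, the responses of IMA1 OE and IMA3 OE had a Pearson r of 0.48 and a Spearman rho of 0.64, those of IMA1 OE and opt3-2 had 0.41 and 0.55, and those of IMA3 OE and opt3-2 had 0.35 and 0.58.

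**Figure D1:**
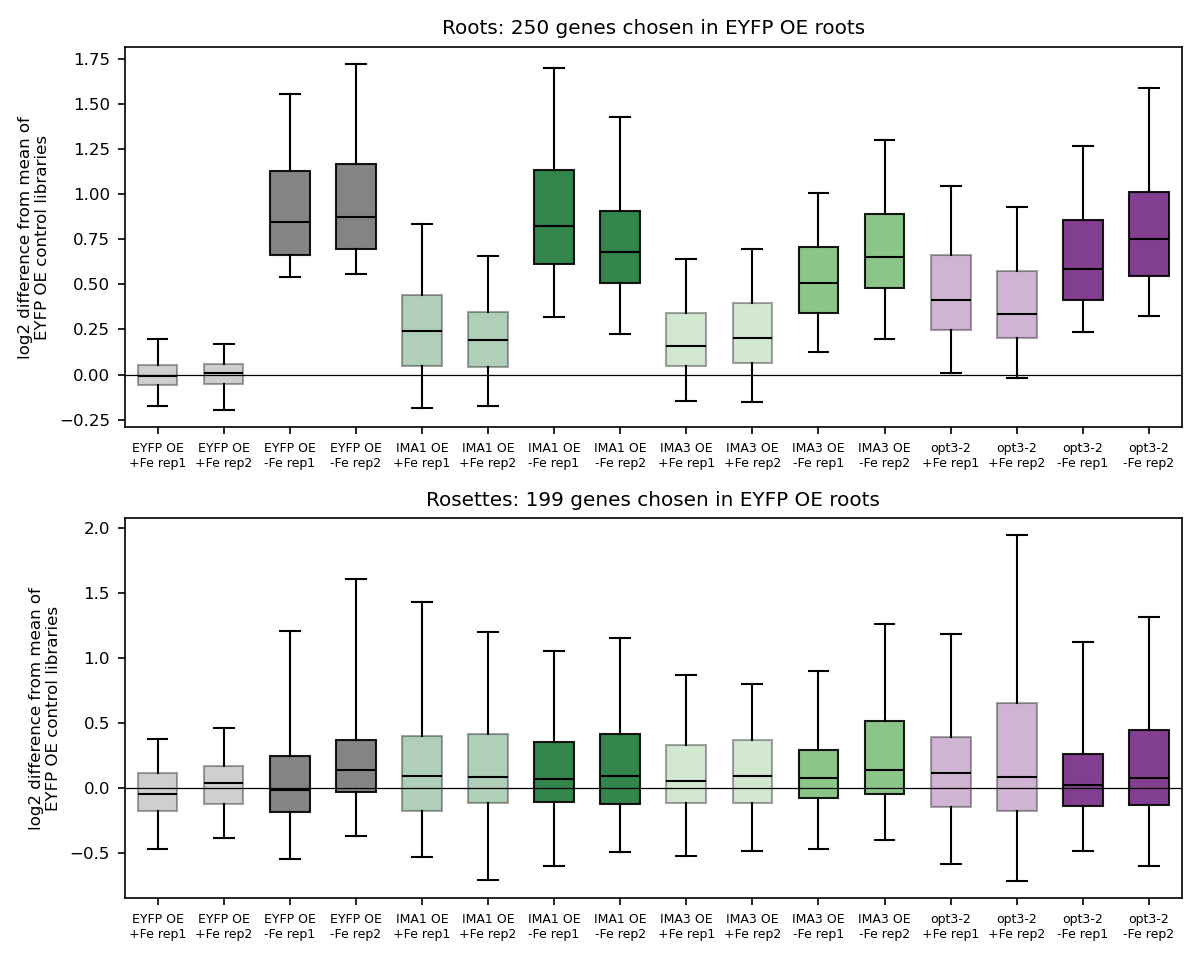
Log2 difference of each member from the mean of both EYFP OE control libraries of its tissue, by library (250 genes in roots, 199 in rosettes; boxes: quartiles with the median as a line; whiskers: 5th to 95th percentile of genes; pale: control medium; dark: iron-deficient medium). The root medians of deficient libraries lie between 0.50 and 0.87 and those of control libraries of the 3 other lines between 0.16 and 0.41, whereas the rosette medians of all groups lie between -0.04 and 0.14; the EYFP OE roots chose the genes.

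These counts rest on few libraries and on the settings of the test. The spread of each gene in roots included the EYFP groups, where the rule favoured close replicates, so the p-values of members may be too small. With the spread estimated from just the groups compared the counts came to 10, 4 and 4 in IMA1 OE, IMA3 OE and opt3-2. Without the filter on low values they came to 52, 12 and 8. They came to 40 in IMA1 OE without deficient replicate 1, 69 without control replicate 1 and 51 without control replicate 2; to 4 in IMA3 OE without deficient replicate 2, the library with the highest ribosomal RNA value, 11 without control replicate 1 and 4 without control replicate 2; and in opt3-2 to 12 and 4 without deficient replicates 1 and 2 and to 7 and 2 without control replicates 1 and 2. Where an adjusted p without a library is given below, that library is the one whose removal raised it most, and removing others of the same groups could end the call too. Calls that held with any 1 library left out numbered 35 in IMA1 OE, 2 in IMA3 OE (PRS2 and AT3G57157) and 1 in opt3-2 (ORG1).

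The lists overlapped. Of the 250 genes 136 rose in none of the 3 lines, 78 in 1 line, 19 in 2 lines and 17 in all 3. The same overlap was not counted over all genes tested, so these figures have no background beside them. The 3 tests also used the same spread for each gene, so their lists are not independent. The 31 genes shared by IMA1 OE and IMA3 OE made up 29.2% of the IMA1 OE list and 91.2% of the IMA3 OE list. The 22 genes shared by IMA1 OE and opt3-2 were 20.8% and 81.5% of these lists, and the 17 shared by IMA3 OE and opt3-2 were 50% and 63% of theirs. The 17 that rose in all 3 lines were 4CL2, ORG1, SAM1, BTSL2, AT1G77280, 4CL1, AT3G57160, PPC1, AT3G57157, BEN1, PRS2, DEP1, AAT, COSY, AT1G25480, RAD52-2 and MAT3. They include 3 enzymes of the methionine and SAM cycle (SAM1, MAT3, DEP1), 2 of the phenylpropanoid pathway (4CL1, 4CL2) and the coumarin synthase COSY.

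The methionine and SAM cycle held 6 members. SAM1 and MAT3 encode SAM synthetases, and MTK, MTI1, DEP1 and ARD2 belong to the Yang cycle, which recycles methionine from the methylthioadenosine that is left when nicotianamine or ethylene is made. SAM1 (chromosome 1, 518091 to 520495) was the most abundant member, at 1725 and 1844 RPKM in deficient EYFP roots after 481 and 458 RPKM on control medium. In IMA1 OE roots it stood at 536 and 547 RPKM on control medium and at 1803 and 1650 RPKM after deficiency, a log2 fold change of 1.64 (SE 0.13, limma adjusted p = 0.00011). In opt3-2 roots it stood at 610 and 679 RPKM and then at 1087 and 1489 RPKM (0.96, SE 0.13, limma adjusted p = 0.00589). In IMA3 OE roots it stood at 506 and 545 RPKM and then at 843 and 999 RPKM (0.84, SE 0.13, limma adjusted p = 0.0175). The groups of a line did not overlap in IMA1 OE, IMA3 OE or opt3-2, while in EYFP the rule required this. The deficient IMA3 OE libraries were the lowest of the deficient ones. The call in IMA1 OE held without any 1 library; the call in IMA3 OE ended without deficient replicate 2 (adjusted p = 0.238) or either control replicate, and that in opt3-2 without control replicate 1 (adjusted p = 0.0704). SAM1 has close relatives, and how reads matching several of them were counted is not given in the sources used here.

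MTK, the methylthioribose kinase, showed a different pattern from SAM1 in opt3-2. Its level on control medium was 42.0 and 42.5 RPKM in EYFP roots, 58.8 and 60.8 RPKM in IMA1 OE, 54.7 and 52.1 RPKM in IMA3 OE, and 88.6 and 81.0 RPKM in opt3-2. After iron deficiency it was 107 and 101 RPKM in EYFP roots, 101 and 88.8 RPKM in IMA1 OE, 65.1 and 79.2 RPKM in IMA3 OE, and 78.7 and 84.5 RPKM in opt3-2. So the iron-fed opt3-2 libraries lay above the iron-fed libraries of every other line, and the opt3-2 groups overlapped. MTK rose in IMA1 OE (0.67, SE 0.09, limma adjusted p = 0.00344) and in IMA3 OE (0.50, SE 0.09, limma adjusted p = 0.0395), while its log2 fold change in opt3-2 was -0.05 (SE 0.09, limma adjusted p = 0.957). MTI1, the next enzyme of the cycle, rose in IMA1 OE (0.70) and IMA3 OE (0.51) and had 0.06 in opt3-2. ARD2, a dioxygenase of the cycle, rose in IMA1 OE (0.75) and had 0.48 in IMA3 OE and 0.15 in opt3-2. DEP1 and MAT3, by contrast, rose in opt3-2 (0.55 and 0.35) as in IMA1 OE (0.85 and 0.58) and IMA3 OE (0.51 and 0.35). The calls of MTK, MTI1, DEP1 and MAT3 in IMA3 OE ended without deficient replicate 2 (adjusted p = 0.384, 0.442, 0.484 and 0.277), those of DEP1 and MAT3 in opt3-2 ended without any 1 of its 4 libraries, and those of MTK and ARD2 in IMA1 OE ended without deficient replicate 1 (adjusted p = 0.054 and 0.0748).

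The difference of opt3-2 on control medium was tested against the IMA lines, whose libraries the choice of genes did not use. The spread in this test still included the EYFP root groups. Against IMA3 OE 3 members were higher and 0 lower (0.194% of all genes were higher and 0.0194% lower): MTI1 (0.66, SE 0.10, limma adjusted p = 0.022), MTK (0.66, SE 0.09, limma adjusted p = 0.0192) and the non-coding RNA AT3G57157 (0.80, limma adjusted p = 0.0255). All 3 calls ended when any 1 of the 4 libraries was left out. Against IMA1 OE 0 members passed by limma (0.0291% of all genes were higher, 0.0146% lower, 0.0437% either). At an unadjusted p under 0.05 were 55 of 250 members and 1192 of all 20586 genes. MTK and MTI1 were at 0.50 and 0.46 (limma adjusted p = 0.157 and 0.222). The difference was above 0 for 225 of 250 members in both comparisons, with medians of 0.16 and 0.18 beside -0.01 and 0.00 for all genes. Of all genes 46.1% were above 0 against IMA1 OE and 50.1% against IMA3 OE. The response of opt3-2 minus that of IMA1 OE, which shares those control libraries, was below 0 for most members. Its median was -0.28, and it was above 0 for 32 of 250 members and for 53.9% of all genes. It passed for 0 members (0.0194% of all genes, 0.00972% in each direction). At an unadjusted p under 0.05 were 75 of 250 members and 875 of all 20586 genes. MTK was at -0.71 (SE 0.13, limma adjusted p = 0.24). The response of opt3-2 minus that of IMA3 OE passed for 0 members and for 0% of all genes, with a median of -0.07. There 19 of 250 members and 880 of all 20586 genes were at an unadjusted p under 0.05.

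Levels on control medium are set beside the EYFP control without a test, because low EYFP control values helped to choose the genes. The median log2 difference of the 250 genes from EYFP roots on control medium was 0.20 in IMA1 OE, 0.18 in IMA3 OE and 0.37 in opt3-2, and it was 0.85 in deficient EYFP roots. After iron deficiency the medians were 0.74, 0.55 and 0.65. For the 6 members of the methionine and SAM cycle the median on control medium was 0.36, 0.26 and 0.68, and for the 6 phenylpropanoid members it was 0.06, 0.10 and 0.28. Of all 15 genes on the methionine and SAM list 6 rose in IMA1 OE, 5 in IMA3 OE and 3 in opt3-2, and 0 fell. Of all genes tested 0.962%, 0.617% and 0.452% rose. Each list gene that rose was one of the 6 members, so no gene of the list outside them rose in these lines. The list medians were 0.35, 0.21 and 0.15.

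The phenylpropanoid pathway also held 6 members: PAL1, C4H, 4CL1 and 4CL2 make coumaroyl-CoA from phenylalanine, and HCT and C3H1 carry it to caffeoyl esters, from which coumarins and lignin units are made. 4CL2 (chromosome 3, 7454269 to 7457404) stood at 54.2 and 52.2 RPKM in EYFP roots on control medium and at 179 and 212 RPKM after deficiency. In IMA1 OE it went from 56.2 and 57.7 RPKM to 159 and 150 RPKM (1.44, SE 0.15, limma adjusted p = 0.000423). In IMA3 OE it went from 54.1 and 57.3 RPKM to 94.7 and 136 RPKM (1.09, SE 0.15, limma adjusted p = 0.00562). In opt3-2 it went from 72.5 and 64.0 RPKM to 126 and 152 RPKM (1.02, SE 0.15, limma adjusted p = 0.00701). The groups of a line did not overlap in IMA1 OE, IMA3 OE or opt3-2, and the iron-fed libraries of both IMA lines lay close to those of EYFP.

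All 6 phenylpropanoid members rose in IMA1 OE, from 0.49 for C4H to 1.44 for 4CL2. In IMA3 OE 4CL1 (0.74) and 4CL2 rose and the others had 0.20 to 0.57. In opt3-2 4CL1 (0.71), 4CL2 and HCT (0.49) rose and the others had 0.23 to 0.55. COSY, the enzyme that closes the coumarin ring of scopoletin, rose in all 3 lines by 0.44 to 0.55. AHA7, a proton pump of the AHA family, had 0.96, 0.71 and 0.18 in IMA1 OE, IMA3 OE and opt3-2 and passed in none. Of 13 tested genes on the phenylpropanoid list 8, 3 and 4 rose in IMA1 OE, IMA3 OE and opt3-2, and of 13 genes of iron uptake and coumarins 11, 10 and 9; 0 genes of either list fell. Among these calls 4CL1 and 4CL2 in IMA1 OE held without any 1 library. The other 4 in IMA1 OE did not: C4H and C3H1 ended without any of the 4 libraries, up to adjusted p = 0.336 and 0.275 without control replicate 1, PAL1 reached 0.0758 without deficient replicate 2 and HCT 0.14 without deficient replicate 1. 4CL1 reached 0.238 without IMA3 OE deficient replicate 2 and 0.206 without opt3-2 deficient replicate 2, and HCT reached 0.285 without the latter. 4CL2 in IMA3 OE and opt3-2 reached adjusted p = 0.0833 without IMA3 OE control replicate 1 and 0.099 without opt3-2 control replicate 2. COSY reached 0.0719, 0.411 and 0.245 in the 3 lines without IMA1 OE control replicate 1, IMA3 OE deficient replicate 2 and opt3-2 deficient replicate 2.

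**Figure D2:**
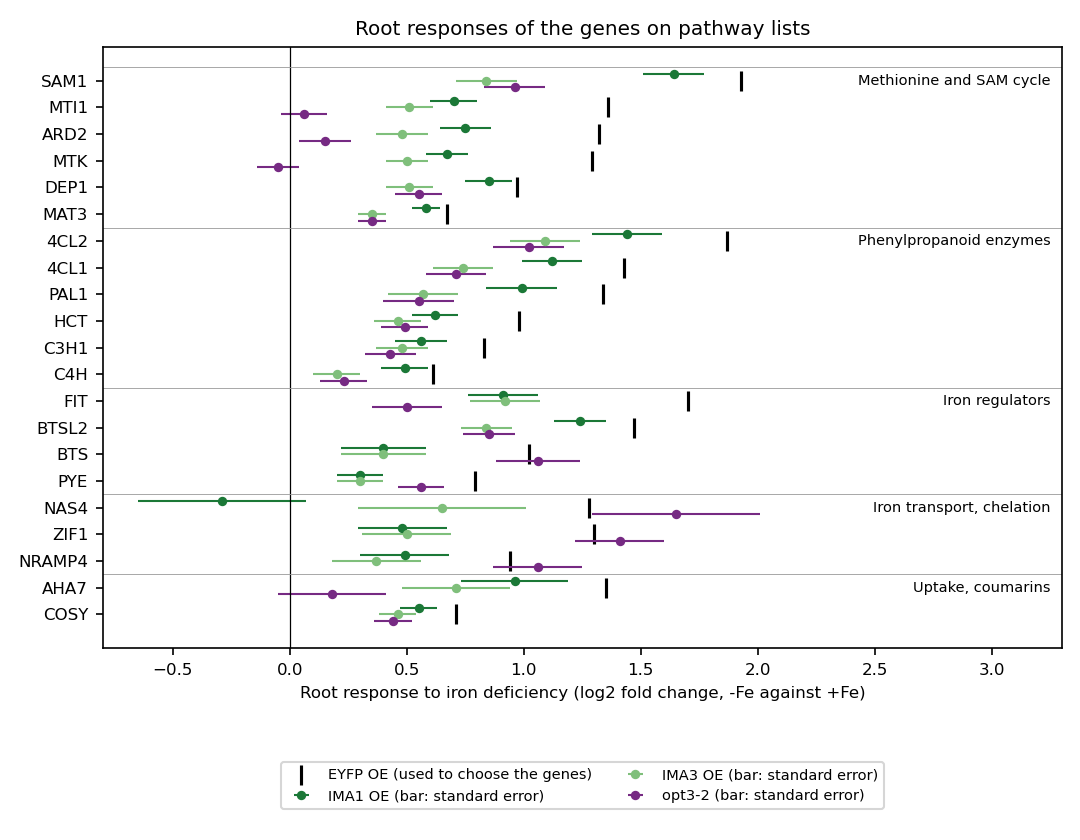
Root response to iron deficiency of the 21 members on 5 pathway lists (horizontal axis: log2 fold change, points with standard error for the 3 lines; black ticks: EYFP OE, whose values chose the genes). Among these 3 lines the phenylpropanoid genes and SAM1 lie furthest right in IMA1 OE, and MTI1, ARD2 and MTK lie near 0 in opt3-2. BTS, ZIF1, NRAMP4, NAS4 and PYE lie furthest right in opt3-2.

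PPC1 is a phosphoenolpyruvate carboxylase, which makes oxaloacetate for organic acids, and PPCK1 is the kinase that activates this enzyme. PPC1 went from 125 and 146 RPKM to 308 and 291 RPKM in IMA1 OE, from 142 and 135 RPKM to 194 and 234 RPKM in IMA3 OE, and from 156 and 156 RPKM to 252 and 257 RPKM in opt3-2. It rose in all 3 lines, with log2 fold changes of 1.14, 0.67 and 0.69 (limma adjusted p = 0.00011, 0.00642 and 0.00438), and the groups did not overlap in any line. The calls in IMA3 OE and opt3-2 ended without their control replicate 2 (adjusted p = 0.0931 and 0.0575). PPCK1 rose in IMA1 OE (0.51, ending at adjusted p = 0.0748 without deficient replicate 1) and IMA3 OE (0.39) and had 0.35 in opt3-2. PFK1, a phosphofructokinase of glycolysis, rose in IMA1 OE (0.94) and IMA3 OE (0.63), and had 0.54 in opt3-2; the IMA3 OE calls of PPCK1 and PFK1 ended without deficient replicate 2 (adjusted p = 0.327 for each).

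The iron regulators among the members were FIT, BTSL2, BTS and PYE. FIT, the bHLH factor that turns on iron uptake genes in the root epidermis, and BTSL2, an E3 ligase known to limit FIT, are active in roots. FIT went from 65.8 and 55.6 RPKM to 133 and 96.8 RPKM in IMA1 OE (0.91, SE 0.15, limma adjusted p = 0.0126), from 55.0 and 49.4 RPKM to 90.9 and 96.6 RPKM in IMA3 OE (0.92, SE 0.15, limma adjusted p = 0.0232) and from 78.8 and 61.6 RPKM to 101 and 96.0 RPKM in opt3-2 (0.50, SE 0.15, limma adjusted p = 0.257). Both calls of FIT ended with single libraries left out (adjusted p = 0.127 without IMA1 OE deficient replicate 1 and 0.247 without IMA3 OE deficient replicate 2). BTSL2 rose in all 3 lines, by 1.24, 0.84 and 0.85; the call held in IMA1 OE without any 1 library, and the others reached adjusted p = 0.0719 without IMA3 OE control replicate 1 and 0.0601 without opt3-2 control replicate 2.

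BTS, the E3 ligase that marks bHLH factors for degradation in both roots and leaves, went from 21.7 and 22.4 RPKM to 41.5 and 52.1 RPKM in opt3-2 roots (1.06, SE 0.18, limma adjusted p = 0.0176). In IMA1 OE it went from 17.9 and 19.6 RPKM to 25.0 and 24.4 RPKM (0.40, SE 0.18, limma adjusted p = 0.705), and in IMA3 OE from 17.5 and 17.7 RPKM to 20.1 and 24.4 RPKM (0.40, SE 0.18, limma adjusted p = 0.806). The libraries of a line did not overlap, and the deficient opt3-2 libraries lay above those of both IMA lines. ZIF1, a vacuolar transporter that sequesters nicotianamine, rose in opt3-2 by 1.41 (SE 0.19, limma adjusted p = 0.00438) and had 0.48 and 0.50 in IMA1 OE and IMA3 OE. NRAMP4, which exports iron from the vacuole, rose in opt3-2 by 1.06 and had 0.49 and 0.37 in the IMA lines. PYE, a bHLH repressor of iron distribution genes, rose in opt3-2 by 0.56 and had 0.30 in each IMA line. These calls ended with 1 library left out: BTS, NRAMP4 and PYE reached adjusted p = 0.156, 0.195 and 0.235 without opt3-2 deficient replicate 2, and ZIF1 reached 0.064 without opt3-2 control replicate 2.

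The larger opt3-2 values of these genes were not shown to differ from those of the IMA lines. The response of opt3-2 minus that of IMA1 OE was 0.67 for BTS (SE 0.25), 0.93 for ZIF1 (SE 0.27) and 0.57 for NRAMP4 (SE 0.27), with limma adjusted p = 1, 0.877 and 1. For NAS4, a nicotianamine synthase, the log2 fold change was -0.29 in IMA1 OE, 0.65 in IMA3 OE and 1.65 in opt3-2 (SE 0.36, limma adjusted p = 0.999, 0.965 and 0.0679). Its libraries stood at 5.98 and 12.5 RPKM on control medium and 5.94 and 7.95 RPKM after deficiency in IMA1 OE, and at 26.6 and 31.8 RPKM and then 78.2 and 106 RPKM in opt3-2. Of the 20 genes on the list of iron regulators 8 rose in IMA1 OE, 10 in IMA3 OE and 12 in opt3-2, and 0 fell. Of 14 tested genes of iron transport and chelation 1, 1 and 3 rose and 3, 2 and 4 fell.

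**Figure D3:**
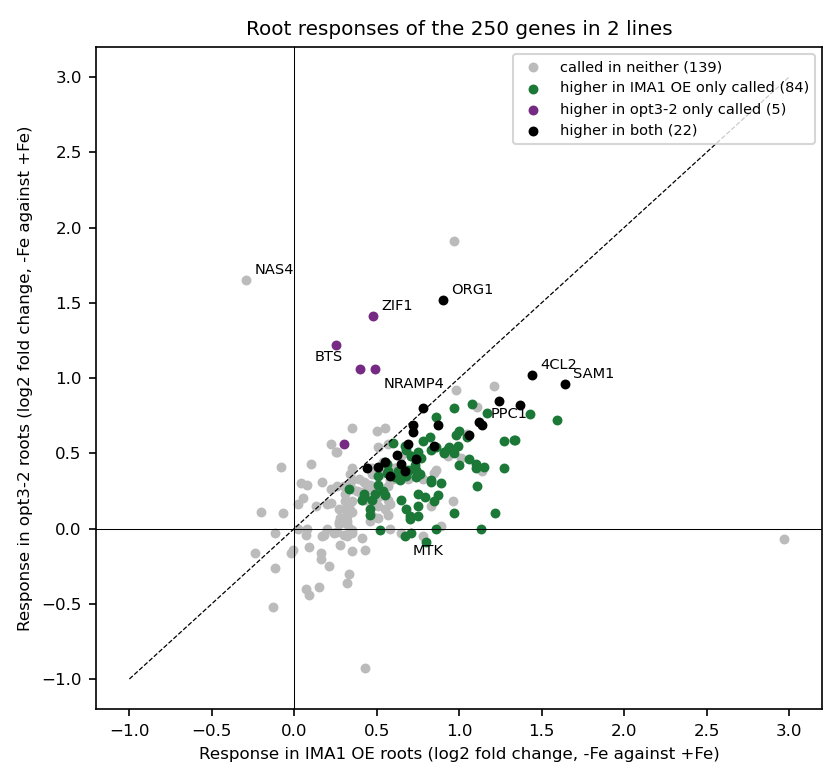
Log2 fold change of each of the 250 genes in IMA1 OE roots (horizontal) and opt3-2 roots (vertical), coloured by the lines in which limma called it higher, with the line of equal response dashed. Most points lie below the line, SAM1, 4CL2 and PPC1 far to the right and MTK near 0 in opt3-2, whereas BTS, ZIF1, NRAMP4, ORG1 and NAS4 lie above the line.

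ORG1, annotated as OBP3-responsive protein 1, rose in roots of all 3 lines. There it went from 28.8 and 23.2 RPKM to 68.8 and 80.0 RPKM in opt3-2 (1.52, SE 0.14, limma adjusted p = 0.000432), a call that held without any 1 library. In IMA1 OE it went from 21.0 and 19.4 RPKM to 40.6 and 35.0 RPKM (0.90, limma adjusted p = 0.00718), and in IMA3 OE from 18.4 and 18.1 RPKM to 30.7 and 32.3 RPKM (0.86, limma adjusted p = 0.0187); these calls reached adjusted p = 0.106 and 0.226 without IMA1 OE deficient replicate 1 and IMA3 OE deficient replicate 2.

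The largest root log2 fold changes of any member were 2.97 in IMA1 OE, 2.19 in IMA3 OE and 1.91 in opt3-2. They belonged to genes that were not called. Other members with large responses, named next, have no known part in iron uptake that could be stated from the annotation. AT3G18560, an uncharacterised protein with the highest EYFP ratio, rose in IMA1 OE by 1.59 and in IMA3 OE by 1.04 and had 0.72 in opt3-2. AT1G77280, annotated as a kinase with a nucleotide hydrolase-like domain, rose by 1.37, 1.04 and 0.82. PRS2, which makes phosphoribosyl pyrophosphate for nucleotides and histidine, rose by 0.69, 0.83 and 0.56, and MEE55, a Serinc-domain protein, rose in IMA1 OE by 1.43 and had 0.38 and 0.76 in the other lines. BEN1, a reductase linked to brassinosteroid levels, rose by 1.06, 0.61 and 0.62. The IMA1 OE calls of these 5 genes held without any 1 library, as did that of PRS2 in IMA3 OE; their other calls ended without IMA3 OE deficient replicate 2 or control replicate 1, or without opt3-2 control replicates, at adjusted p = 0.0742 to 0.317. HAK5, a potassium transporter, and GLP9, a germin-like protein, had large EYFP ratios but small changes in opt3-2 (-0.03 and 0.02), and they passed in none of the 3 lines; HAK5 was at 0.58 and 2.08 RPKM in EYFP control roots, with replicates far apart.

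AT3G57157, a non-coding RNA on chromosome 3 (21157011 to 21157247), and its neighbour AT3G57160, a cysteine-rich membrane protein, lie next to each other (up to 21158867) and both rose in all 3 lines. AT3G57157 went from 45.1 and 38.8 RPKM to 88.3 and 106 RPKM in IMA3 OE (1.29, SE 0.12, limma adjusted p = 0.000393), and rose by 0.72 in IMA1 OE and 0.64 in opt3-2. AT3G57160 rose by 0.78, 0.69 and 0.80 in IMA1 OE, IMA3 OE and opt3-2. Of these 6 calls only that of AT3G57157 in IMA3 OE held without any 1 library; the others reached adjusted p = 0.127 to 0.39. The kit kept the strand of the RNA, but whether reads were counted by strand is not given in the sources used here, so reads of such neighbours cannot be separated with certainty.

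Products named as kinases made up 34 of the 250 genes (13.6%) and 5.32% of the genes tested in roots. The class holds enzymes such as MTK, PFK1, NADK1 and PPCK1 beside receptor-like kinases. Of the 34, 14 rose in IMA1 OE (41.2%, beside 42.6% of the other members), 5 in IMA3 OE (14.7% beside 13.4%) and 2 in opt3-2 (5.88% beside 11.6%), and their median log2 fold changes were 0.47, 0.34 and 0.14, beside 0.55, 0.39 and 0.30 for the other members. A group of 5 members lies within one stretch of chromosome 1, from 19214072 to 19278798: IOS1, AT1G51830, AT1G51840, AT1G51860 and AT1G51890, annotated as leucine-rich repeat or kinase-like proteins. In IMA1 OE AT1G51840 rose by 0.75 (adjusted p = 0.142 without deficient replicate 1), and the other 4 had 0.17 to 0.55; in opt3-2 all 5 had -0.06 to 0.13 and passed in none. Reads may be shared between such related neighbours. None of the members carried a product name of ribosomes or translation, a class of 1.77% of the genes tested.

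In rosettes most of these genes did not follow the root. Of the 250 genes 199 averaged 0.5 RPKM or more across the 16 rosette libraries, and the other 51 were not tested. In EYFP rosettes 8 rose and 1 fell (0.174% and 0.164% of all 19491 genes), and the median log2 fold change of the 199 was 0.06. In opt3-2 rosettes 7 rose and 0 fell (0.123% and 0.0924% of all genes), with a median of -0.05. In IMA1 OE rosettes 0 passed by limma (0% of all genes), with 3 members and 263 of all 19491 genes at an unadjusted p under 0.05. In IMA3 OE rosettes 0 passed (0.0359% of all genes), with 10 members and 240 of all genes at an unadjusted p under 0.05. The medians of the members were 0.01 and 0.03. For all genes tested the medians were 0.00, 0.00, 0.01 and 0.03 in EYFP, IMA1 OE, IMA3 OE and opt3-2. In that order the log2 fold change was above 0 for 63.3%, 51.8%, 56.8% and 41.2% of members. The shares of all genes were 50.4%, 50.9%, 52.3% and 58.1%. Both deficient libraries lay above both control libraries for 36 of the 199 in EYFP (9.88% of all genes), 34 in IMA1 OE (11.3%), 37 in IMA3 OE (11.5%) and 32 in opt3-2 (19.1%). They lay below for 6 (9.72% of all genes), 24 (10.8%), 17 (9.42%) and 46 (11.9%) in the same order of lines.

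SAM1, 4CL2 and PPC1 stayed near their control levels in rosettes. SAM1 was at 230 and 179 RPKM in EYFP rosettes on control medium and at 195 and 227 RPKM after deficiency, 4CL2 at 7.27 and 4.95 RPKM and then 6.50 and 7.64 RPKM, and PPC1 at 52.2 and 33.5 RPKM and then 41.1 and 33.9 RPKM. The groups of each gene overlapped, with log2 fold changes of 0.05, 0.21 and -0.16. FIT was at 0.95 to 1.96 RPKM in all 16 rosette libraries.

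A small set of genes, most of them iron genes, rose in rosettes. The 8 that rose in EYFP rosettes were AT2G14247 (5.72), ORG1 (3.46), BTS (2.63), ZIF1 (2.43), PYE (1.89), NAS4 (1.81), NRAMP4 (1.63) and CSD1 (1.47), the last a copper and zinc superoxide dismutase that also rose in IMA1 OE and opt3-2 roots (0.44 and 0.40, reaching adjusted p = 0.122 without IMA1 OE deficient replicate 1 and 0.246 without opt3-2 control replicate 2). BTS was at 30.2 and 17.5 RPKM on control medium and at 109 and 192 RPKM after deficiency in EYFP rosettes (SE 0.27, limma adjusted p = 0.00183). In IMA1 OE rosettes BTS was at 18.6 and 16.9 RPKM and then 19.0 and 19.8 RPKM (0.13, limma adjusted p = 1). In IMA3 OE rosettes it was at 19.3 and 20.3 RPKM and then 59.1 and 61.1 RPKM (1.58, SE 0.27, limma adjusted p = 0.143), and in opt3-2 rosettes at 22.4 and 18.7 RPKM and then 111 and 91.9 RPKM (2.25, SE 0.27, limma adjusted p = 0.00759). The deficient libraries of EYFP, IMA3 OE and opt3-2 lay far above their control libraries and those of IMA1 OE lay just above theirs, though whether the lines' rosette responses differ was not tested.

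ZIF1 in rosettes was at 28.3 and 17.8 RPKM and then 100 and 151 RPKM in EYFP, at 18.4 and 16 RPKM and then 17.7 and 19.2 RPKM in IMA1 OE, at 19.6 and 17.4 RPKM and then 51.3 and 55.9 RPKM in IMA3 OE, and at 18.0 and 13.5 RPKM and then 84.6 and 77.3 RPKM in opt3-2. Its log2 fold changes were 2.43, 0.11, 1.51 and 2.31 (limma adjusted p = 0.00137, 1, 0.0788 and 0.00296). ORG1 was at 49.9 and 16.9 RPKM and then 289 and 365 RPKM in EYFP and at 29.4 and 19.3 RPKM and then 272 and 166 RPKM in opt3-2 (3.10, limma adjusted p = 0.0136), whereas in IMA1 OE it had 0.14. The control replicates of EYFP rosettes were far apart for ORG1, ZIF1 and BTS, with replicate 1 the higher.

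The 7 that rose in opt3-2 rosettes were AT2G14247 (4.26), ORG1, ZIF1, BTS, DGAT3 (1.94), NAS4 (1.61) and PYE (1.43). AT2G14247, annotated as an uncharacterised protein, was at 7.12 and 3.20 RPKM in EYFP rosettes on control medium and at 219 and 355 RPKM after deficiency. In IMA1 OE rosettes it stayed at 0.03 to 3.79 RPKM, in IMA3 OE it went from 3.58 and 1.32 RPKM to 75.2 and 74.0 RPKM, and in opt3-2 from 10.0 and 9.85 RPKM to 230 and 170 RPKM. Low values make these fold changes depend on the 0.5 RPKM added before the logarithm. The calls of BTS and ZIF1 in EYFP rosettes held without any 1 library. Those of NAS4, AT2G14247 and PYE reached adjusted p = 0.0673 without EYFP control replicate 2, NRAMP4 reached 0.079 without it, ORG1 reached 0.0673 and CSD1 0.322 without EYFP deficient replicate 2. The count of 9 called in EYFP rosettes came to 3 without control replicate 2 and to 3 without deficient replicate 2. In opt3-2 rosettes 0 of the 7 calls remained without control replicate 2, which holds the high ribosomal RNA value, 0 without deficient replicate 1, and 1 without deficient replicate 2.

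AT1G80360, a transferase that depends on pyridoxal phosphate, fell in EYFP rosettes and rose in roots of both IMA lines. In EYFP rosettes it fell from 30.5 and 35.8 RPKM to 21.9 and 18.4 RPKM (-0.71, limma adjusted p = 0.0192, and 0.239 without EYFP control replicate 2). In roots it rose in IMA1 OE by 0.85 and in IMA3 OE by 0.50, and it had 0.18 in opt3-2; the IMA3 OE call ended without deficient replicate 2 (adjusted p = 0.415).

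**Figure D4:**
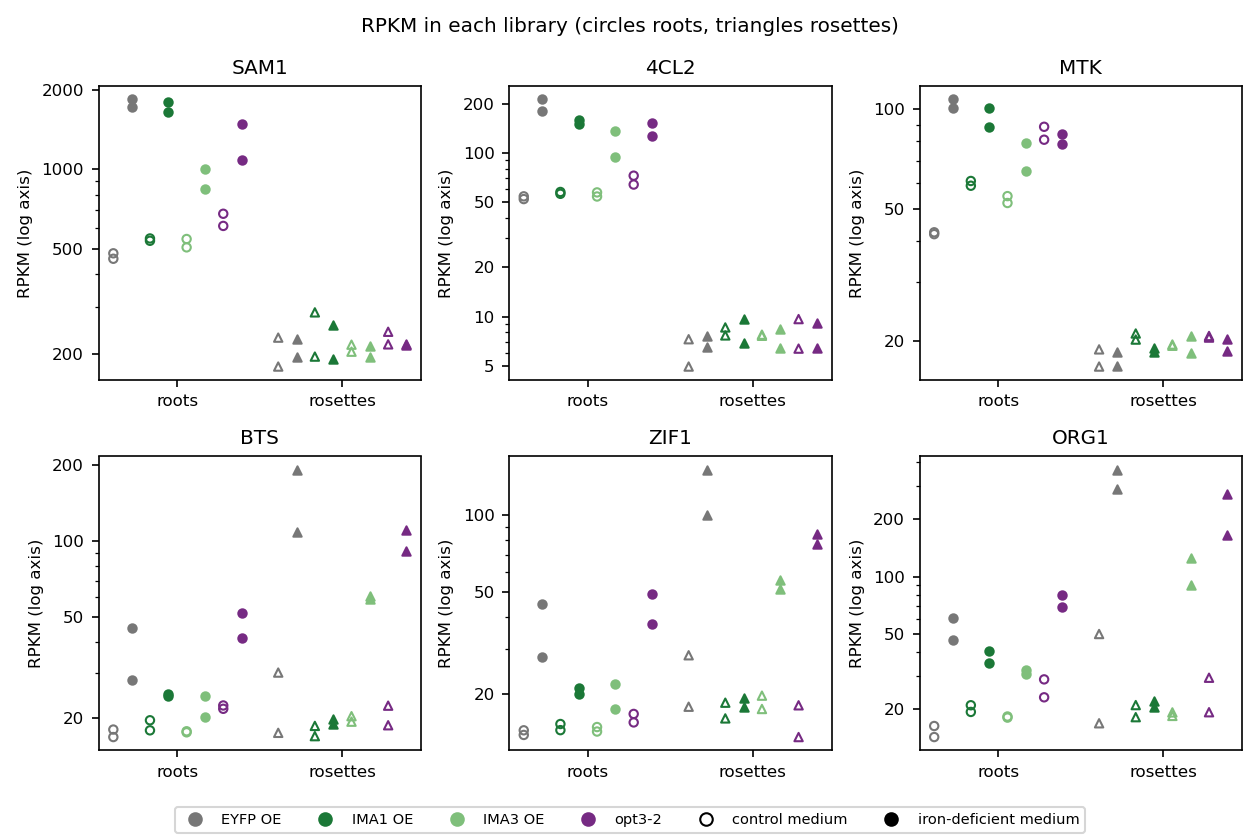
RPKM of 6 members in every library on a log axis (circles: roots; triangles: rosettes; open: control medium; filled: iron-deficient medium; colour: line; 2 points per group are its replicates). SAM1, 4CL2 and MTK are higher in roots and level in rosettes, whereas BTS, ZIF1 and ORG1 reach their highest values in deficient EYFP rosettes and stay near control values in IMA1 OE rosettes.

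Rosettes of the 3 lines on control medium were compared with those of EYFP. In IMA1 OE 2 were lower than in EYFP and 0 higher (0.0462% and 0.0308% of all genes, 0.077% in either direction): AT3G56360 (-2.90, limma adjusted p = 0.0338) and DGAT3, a diacylglycerol acyltransferase (-2.49, limma adjusted p = 0.0219). DGAT3 was at 219 and 141 RPKM in EYFP rosettes, whereas it was at 30.8 and 30.8 RPKM in IMA1 OE, with IMA3 OE at 122 and 117 RPKM and opt3-2 at 92.0 and 65.0 RPKM. After deficiency it was at 285 and 510 RPKM in EYFP rosettes, 107 and 158 RPKM in IMA1 OE, 253 and 309 RPKM in IMA3 OE and 295 and 314 RPKM in opt3-2. AT3G56360, an uncharacterised protein, was on control medium at 155 and 91.4 RPKM in EYFP but at 11.6 and 20.9 RPKM in IMA1 OE. In every line the deficient libraries of DGAT3 and of AT3G56360 lay above the control libraries. In opt3-2 AT5G38900, a thioredoxin-like protein, was higher than in EYFP (3.00, limma adjusted p = 0.0358; 0.144% of all genes were higher), at 5.93 and 11.8 RPKM against 0.20 and 1.11 RPKM. In IMA3 OE 0 passed by limma (0% of all genes), with 20 of 199 members and 625 of all 19491 genes at an unadjusted p under 0.05. The calls ended with single libraries left out: DGAT3 and AT3G56360 reached adjusted p = 0.157 and 0.304 without IMA1 OE control replicate 1, and AT5G38900 reached 0.409 without opt3-2 control replicate 2. The count in IMA1 OE came to 0 without its control replicate 1 or EYFP control replicate 1 and to 1 without EYFP control replicate 2, and that in opt3-2 came to 4 without its control replicate 1 and to 0 without its control replicate 2 or EYFP control replicate 1.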

How the data were processed

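Per the file headers, each of the 26 deposited files sets a pair of groups of 1 tissue side by side and holds a log2 fold change and a p-value from a Z-test beside one value per library. No header names the unit of the deposited values, which are read here as the authors' RPKM. Some libraries shared their highest value, such as 3897 RPKM for AT3G41768 in replicate 1 of both EYFP root groups. Whether the values were adjusted for more than library size was not tested. The RPKM printed for IMA1 OE, IMA3 OE and opt3-2 come from separate pairs of groups, each beside the EYFP control. Per the submitters' processing notes bcl2fastq 1.8.4, Trimmomatic 0.35, Bowtie2 2.0.6, edgeR 3.12.1, limma 3.26.9 and TAIR10 were used, with no role given. Rosette samples are called roots in one label; their titles and tissue entries were followed. Read counts were not used here, so the depth is unknown and no counting interval is given.

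Values were taken as log2(RPKM + 0.5), which understates changes of weak genes, and a gene was tested where its mean across the 16 libraries of a tissue reached 0.5 RPKM. Fold changes were taken inside tables through the EYFP control libraries, which cancel in the response of a line; for the EYFP libraries, which recur, the median SD across tables was 0.0293 (log2) or less. The residual spread came from all 8 groups of a tissue (8 degrees of freedom), moderated by squeezeVar of limma 3.58.1 in R 4.3.3, with Benjamini-Hochberg adjustment within each of 14 comparisons, tested on simulated data. In roots these groups include the EYFP libraries, where the rule favoured genes with close replicates. The spread of members in roots may therefore be understated, and their root p-values are not fully independent of the rule. Each library was left out in turn; other alternatives changed the added constant, the filter, the spread and a replicate block. Members and lists were chosen with earlier results of these data known. Named genes were members on the lists, the 10 highest in level and in ratio, the 5 largest calls per comparison that held without any 1 library, the 10 strongest called in all 3 root responses, those at a limit, and lower calls; the other 7 called in all 3 roots, PPCK1, PFK1, kinases, AT2G14247, DGAT3, AT3G56360, AT5G38900 and PROPEP3 and the genes above 0 in no line were named after their values were seen. Gene names, products and sequences are from RefSeq TAIR10.1, with 248 of 250 members matched.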

Additional observations from a re-analysis of the deposited data

Results flagged for a closer look

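The named genes with a call in roots of a line were searched for an opposite move in rosettes of that line. For 8 of them both deficient libraries lay above both control libraries in roots and below them in rosettes. The log2 fold changes given here are those in rosettes, and the difference between the tissues was not tested. Of all 199 members tested in rosettes, both deficient libraries lay below for 24 in IMA1 OE, 17 in IMA3 OE and 46 in opt3-2. Over all genes the shares were 10.8%, 9.42% and 11.9%. In IMA1 OE these were FIT (-0.29), ARD2 (-0.09), MTK (-0.11) and NUDT18, a nudix hydrolase (-0.46). In IMA3 OE they were AT3G57160 (-0.27) and AT1G80360 (-0.25). In opt3-2 they were SAM1 (-0.10) and COSY (-0.21). None of these rosette values passed by limma.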

How the results depend on the processing

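The count of members called moved by more than 1.5 times under these alternatives. Without a filter on low values it was 52 in IMA1 OE roots, 12 in IMA3 OE roots, 8 in opt3-2 roots, 0 for opt3-2 against IMA3 OE roots, 3 in opt3-2 rosettes, and 1 and 0 for IMA1 OE and opt3-2 against EYFP rosettes. When the spread came from just the groups compared it was 10, 4 and 4 in the 3 root responses, 0 for opt3-2 against IMA3 OE roots, 0 in EYFP and opt3-2 rosettes, 1 in IMA3 OE rosettes, and 0 for IMA1 OE and opt3-2 against EYFP rosettes. With a replicate block it was 58 in IMA3 OE roots, 56 in opt3-2 roots, 4 in IMA3 OE rosettes, and 4 and 10 for IMA1 OE and opt3-2 against EYFP rosettes. In IMA1 OE roots the block gave 128, within 1.5 times. The replicate differences of 2 groups correlated over 0.1 in 26 of 28 pairs in roots and 27 of 28 in rosettes. The median r was 0.233 in roots and 0.371 in rosettes, so libraries with the same number tended to shift together. The labels name no shared origin for them, and the main fits did not take the numbers as pairs. The main p-values therefore treat such a shared shift as independent spread. With a constant of 1 it was 1 in IMA3 OE rosettes. By p-values taken from the authors' deposited table it was 5, 3 and 4 for IMA1 OE, IMA3 OE and opt3-2 against EYFP rosettes. With 1 library left out it ranged from 40 to 87 in IMA1 OE roots, 4 to 37 in IMA3 OE roots, 2 to 12 in opt3-2 roots, 0 to 0 for opt3-2 against IMA3 OE roots, 0 to 1 for the response of opt3-2 minus that of IMA1 OE, 3 to 9 in EYFP rosettes, 0 to 7 in opt3-2 rosettes, and 0 to 2 and 0 to 4 for IMA1 OE and opt3-2 against EYFP rosettes. No called value changed sign. The small rosette medians did: without deficient replicate 2 they went from 0.06 to -0.01 in EYFP and from 0.03 to 0.00 (below 0) in IMA3 OE; so did uncalled values of AHA7, GLP9, HAK5, MTK and NAS4 in roots without single libraries. The cause of these moves was not tested. Libraries per group, n = 2, and the unknown depth limit all calls.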
